A study of Drosophila melanogaster with 2 samples.

Results

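The 10 genes described here are crc, which encodes a transcription factor of the amino acid stress response, and 9 genes for enzymes of amino acid and folate metabolism (aay, AsnS, Shmt, Nmdmc, pug, Got1, Got2, P5cr and Gdh), out of 13981 protein-coding genes in the annotation. They were chosen by name with earlier results of these data known. What was described is where the tagged transcription factor Mio was found at them by chromatin immunoprecipitation sequencing (ChIP-seq), which locates DNA that a protein occupies in fixed chromatin. Every peak summit from 2 kb before a gene to its end was collected (the reach of the gene), and the strongest summit within 500 bp of one of its transcription start sites (TSSs) was taken as its promoter peak.

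The study has 1 group of Drosophila melanogaster. It consists of whole larvae of the transgenic line Mio-GFP at the third instar, in the wandering stage, with males and females pooled. In this line Mio carries green fluorescent protein (GFP) at its C-terminal end, and an anti-GFP antibody was used for the precipitation. The 2 biological replicates are numbered 5 and 1 in the labels, and no untagged, treated or second group was analysed here. Mio is an older name of Mondo. In whole larvae, binding in few cells and weak binding in many cells cannot be told apart.

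A list of peaks was deposited for each replicate (29999 peaks for replicate 5 and 30000 for replicate 1), for both replicates pooled (28423) and as an optimal list of 1146 peaks, of which 1117 lie on nuclear chromosomes. The first 3 lists are relaxed, that is, they hold weak and background peaks on purpose. A peak's signal is the authors' own value, its scale not given in the sources used here, so peaks are compared by rank within a list, with rank 1 the strongest. Ranks of lists of different length are not set against each other as a change, and the number of reads behind the peaks is unknown. A single control alignment served both replicates, which therefore share its errors.

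Mondo, a transcription factor of the basic helix-loop-helix class, acts together with Mlx (bigmax) at E-box sequences and is known for the transcriptional response of the larva to dietary sugar. crc (cryptocephal) is the fly ATF4, a basic leucine zipper protein whose translation rises when the initiation factor eIF2 is phosphorylated, and which is known to switch on genes for amino acid synthesis and uptake. The enzymes make or interconvert serine, glycine, asparagine, aspartate, proline and glutamate, or carry the carbon units that serine gives to folate.

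Sequences at or beside peaks of crc, aay, Got2, P5cr and pug are given first. They are in the dm6 build (Release 6 genome), read 5′ to 3′ on the strand of the gene. The first 3 are the 101 bases centred on the optimal summits of crc, aay and Got2, and the optimal window of AsnS is not printed. The next is the whole 73-bp gap between the divergently transcribed P5cr and GatA. The optimal P5cr summit lies just outside this gap, 2 bp after the P5cr TSS. The last is the 79 bp just before pug, where replicate 1 has a summit and the pooled list none. Capitals mark matches on either strand to TGATGNAA, TATCGATA, CANNTG (the general E-box) or the repeat word GAGAG, and a match on the other strand appears reversed and complemented.
crc optimal summit, chr2L:21313227-21313327, plus strand: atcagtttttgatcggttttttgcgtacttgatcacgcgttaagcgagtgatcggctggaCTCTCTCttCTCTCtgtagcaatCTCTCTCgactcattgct
aay optimal summit, chr3L:9423046-9423146, plus strand: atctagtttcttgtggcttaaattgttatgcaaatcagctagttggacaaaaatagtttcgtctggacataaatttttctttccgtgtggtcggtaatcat
Got2 optimal summit, chr2L:1986751-1986851, minus strand: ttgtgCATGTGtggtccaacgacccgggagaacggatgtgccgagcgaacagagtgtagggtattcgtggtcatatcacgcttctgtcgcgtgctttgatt
P5cr and GatA gap, chr3R:19028858-19028930, plus strand: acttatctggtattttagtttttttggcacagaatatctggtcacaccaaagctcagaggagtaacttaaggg
pug upstream, chr3R:10696455-10696533, plus strand: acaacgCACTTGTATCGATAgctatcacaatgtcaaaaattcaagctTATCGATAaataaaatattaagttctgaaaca

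Of the 10 genes, 5 had an optimal peak in their reach (crc, aay, AsnS, Got2 and P5cr), where 9.56% of all protein-coding genes had one. Optimal promoter peaks were found at 3 of the 10 (aay, Got2 and P5cr), against 6.17% of all protein-coding genes. The genes were chosen with such counts known, so the shares of all genes are background and nothing is read from the comparison. Each of the 5 genes had exactly 1 optimal peak, each peak was 360 bp wide, and all optimal peaks had the same −log10 q-value, 3.41, which therefore does not rank them. Shmt, Nmdmc, pug, Got1 and Gdh had no optimal peak in reach.

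The crc gene (FBgn0000370, chr2L:21310866-21319527, plus strand) has 2 annotated TSSs. The first, at 21310866, starts the transcripts crc-RA, crc-RE and crc-RF, and the second, at 21314360, starts crc-RB and is shared with the overlapping gene CG46314. The single optimal peak (chr2L:21313097-21313456) lies between them in a crc intron, with its summit 2411 bp after the first TSS and 1083 bp before the second. It ranked 284 in the optimal list with a signal of 138.6. In replicate 5 the matching peak ranked 208 with a signal of 97.24 and was the strongest of crc, 52 bp nearer to the first TSS. In replicate 1 it ranked 648 with a signal of 41.33 and a summit 6 bp nearer to the second TSS. Both replicates thus placed a strong peak in the intron that precedes crc-RB, outside 500 bp of either TSS.

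**Figure D1:**
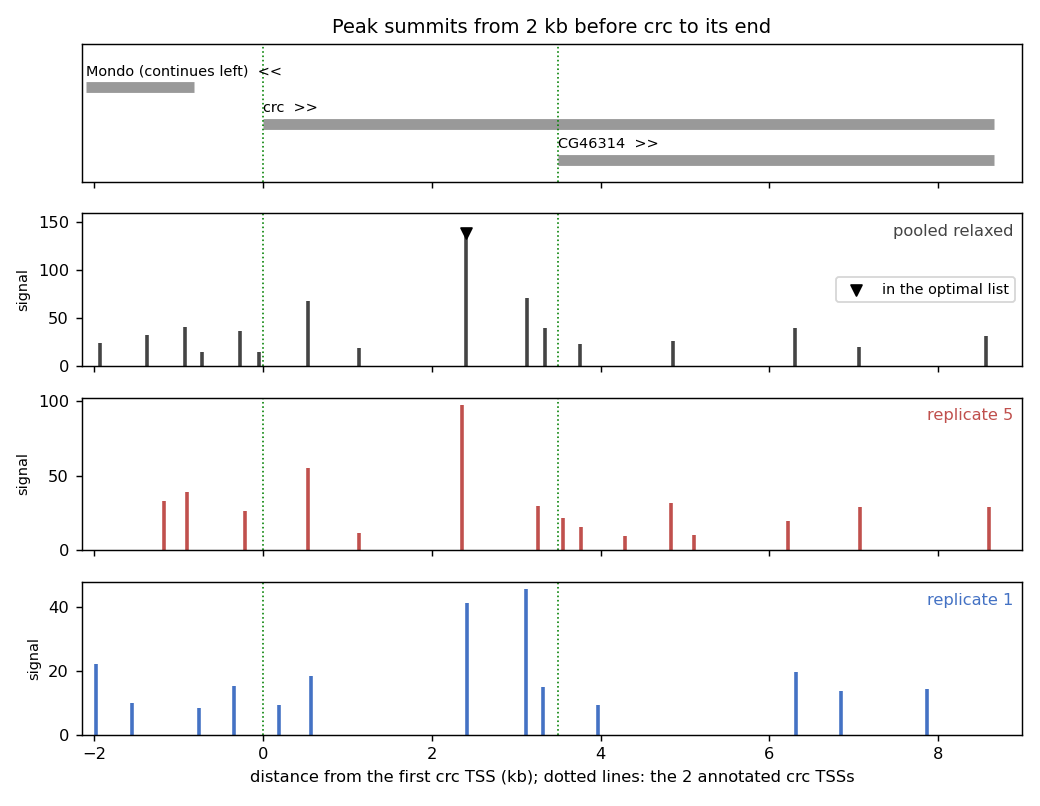
Peak summits from 2 kb before crc to its end, by distance from the first crc TSS in kb (x axis) and the authors' signal (y axis, a separate scale for each list); bars on top are the annotated genes with their direction and dotted lines the 2 crc TSSs. The highest bar of the pooled list and of replicate 5 is the optimal peak between the TSSs, whereas in replicate 1 the highest bar is the peak closer to the second TSS.

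A further peak lay closer to the second TSS. In the pooled list its summit was 362 bp before that TSS and 3132 bp after the first, with rank 1233 and a signal of 71.18, short of the optimal list. In replicate 1 it was the strongest crc peak, with rank 513, a signal of 45.67 and a summit 377 bp before the second TSS. In replicate 5 no summit lay within 100 bp of it. The nearest one there lay 231 bp before the second TSS, with rank 3729 and a signal of 29.7. It matched another pooled summit instead, 158 bp before that TSS, with rank 4155 and a signal of 39.76. The replicate 1 match of this other summit ranked 6172 with a signal of 14.9, 176 bp before the TSS. The strongest crc peak therefore differed between the replicates. The promoter peak of crc was at different sites in them and was strong in replicate 1 alone.

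The first TSS had peaks on both sides. A summit in the 5′ UTR, 529 bp after the first TSS and so just outside the 500 bp that define a promoter peak, ranked 1328 in the pooled list with a signal of 68.12. Its counterpart ranked 801 in replicate 5 with a signal of 55.35 at 533 bp, and 3619 in replicate 1 with a signal of 18.34 at 568 bp. It was thus stronger than the promoter peak of crc in replicate 5, weaker than it in replicate 1 and close to it in the pooled list. That promoter peak was at another site in replicate 5 than in replicate 1 and the pooled list. In the 500 bp before the first TSS, the strongest summit lay at 277 bp in the pooled list with rank 4859, at 211 bp in replicate 5 with rank 4803 and at 340 bp in replicate 1 with rank 5724. For comparison with the 500-bp limit, the crc summit just inside it was the pooled one 362 bp before the second TSS, and AsnS too had a summit just outside it, 507 bp before its TSS with rank 2536 and a signal of 50.58. Downstream of the second TSS, the strongest summit in the pooled list lay in an intron 2805 bp after it, with rank 4100 and a signal of 40.02. In replicate 1 the strongest one lay near it, at 2824 bp with rank 3071. In replicate 5 the strongest one lay elsewhere, at 1340 bp with rank 3259, and the summit at 2730 bp ranked 9121.

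In all, the reach of crc held 16 summits of the pooled list, 15 of replicate 5 and 13 of replicate 1. This comes to 15 summits per 10 kb in the pooled list, where the median protein-coding gene had 2.31, and 0.243% of genes had more per length. In replicate 5 the density was 14.1 per 10 kb (median gene 2.54, 0.787% of genes denser) and in replicate 1 it was 12.2 (median gene 2.48, 0.272% denser). The high number of relaxed peaks per length was thus found in all 3 lists.

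The neighbour of crc is Mondo itself, the gene of the tagged protein. The genes lie head to head with 815 bp between their starts. Of the summits in the crc reach, 4 of 16 in the pooled list, 2 of 15 in replicate 5 and 3 of 13 in replicate 1 lay nearer to a TSS of Mondo than to one of crc. The strongest of them in the pooled list, 924 bp before the first crc TSS, ranked 3874 with a signal of 41.12 and lay 108 bp after a Mondo TSS. The 10 kb before the crc start held 12, 12 and 8 summits in the pooled, replicate 5 and replicate 1 lists, and the 10 kb after it held 11, 13 and 10, where the mean over the chromosome arms was 2.12, 2.23 and 2.25. The denser of the 2 windows was matched or passed by 0.311% of all 10-kb windows in the pooled list, 0.296% in replicate 5 and 0.341% in replicate 1. The labels describe a transgenic line for the tagged protein. How much sequence around Mondo the transgene carries, and so whether crc sequence is present in extra copies in these larvae, is a point not given in the sources used here. Its part in the crc peaks was not tested.

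**Figure D2:**
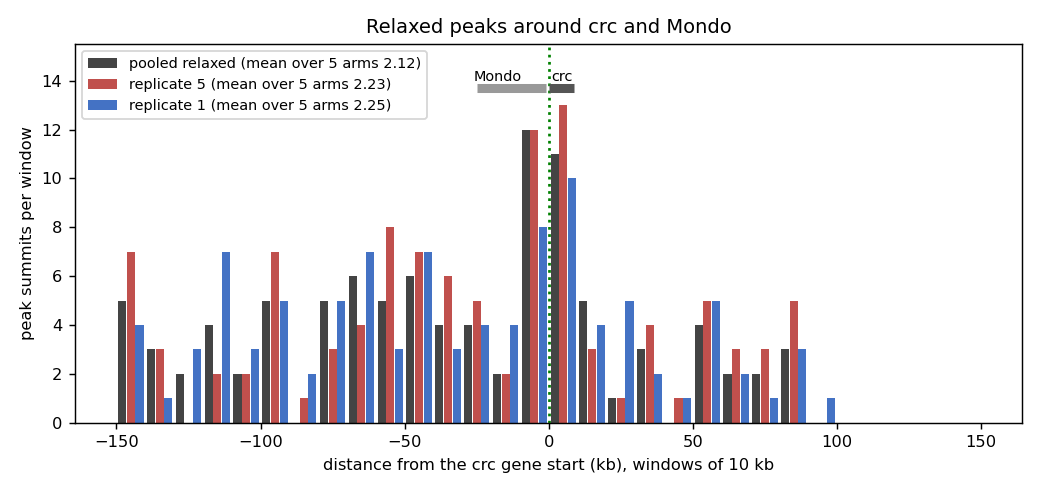
Peak summits per 10-kb window (y axis) by distance of the window from the crc gene start in kb (x axis) in the pooled relaxed list, replicate 5 and replicate 1, with the Mondo and crc genes drawn on top. The 2 windows that meet at the crc start are the highest shown in each list, with 8 to 13 summits.

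Serine synthesis is represented by aay (astray, FBgn0023129, chr3L:9423253-9424781, plus strand), the phosphoserine phosphatase that carries out the last step of the pathway. Its optimal peak (chr3L:9422916-9423275) had its summit 157 bp before the TSS, within an intron of Atat, which encodes a tubulin acetyltransferase and runs on the opposite strand. The peak ranked 276 in the optimal list with a signal of 140.5. It ranked 363 in replicate 5 with a signal of 75.84 and 352 in replicate 1 with a signal of 53.62, with summits 7 bp upstream and 12 bp downstream of the pooled one. This was the promoter with the closest ranks in the replicates, and the only one of the 10 genes' promoter peaks among the 1146 strongest peaks of both replicates, where 3.45% of all genes have one. The genes whose promoter peaks came closest to it in rank over the 3 lists, among 3995 with a promoter peak in all of them, were TRAM (ranks 287, 313 and 337 in the pooled list, replicate 5 and replicate 1), CG9471 (310, 340 and 334), and, with equal values, CG3104 and RpS21 (261, 335 and 311).

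The aspartate aminotransferases, which exchange amino groups between aspartate and glutamate, differed. Got2 (FBgn0001125, chr2L:1984512-1987758, minus strand), the mitochondrial enzyme, had an optimal peak (chr2L:1986621-1986980) with its summit in a coding exon of the gene, 154 bp after the nearer of its 2 TSSs. Of the 1117 nuclear optimal summits, 4 lay in a coding exon (0.358%), and 513 in introns. The peak ranked 437 in the optimal list with a signal of 111.7, 1307 in replicate 5 with a signal of 45.76 and 268 in replicate 1 with a signal of 61.9, and the summit was the same base in all lists. At the other Got2 TSS, the pooled list held a summit of rank 14580 with a signal of 20.76, 43 bp after it, and 1 of rank 22327 with a signal of 16.34, 415 bp before it. Just inside the 2-kb limit of the reach, a pooled summit lay 1896 bp before Got2 with rank 2516 and a signal of 50.78. Got1 (FBgn0001124, on chromosome arm 2R), the cytosolic enzyme, had weak promoter peaks. They ranked 15677 in the pooled list with a signal of 19.93, 19309 in replicate 5 with a signal of 12.72 and 27388 in replicate 1 with a signal of 8.309, and of the genes with a promoter peak in the same list 81%, 87.5% and 95.8% had a stronger one.

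P5cr (FBgn0015781, chr3R:19028931-19030159, plus strand) encodes pyrroline-5-carboxylate reductase, which makes proline. Its optimal peak (chr3R:19028753-19029112) had its summit in the 5′ UTR, 2 bp after the TSS, and is shared with GatA, whose TSS is 76 bp away on the opposite strand and which encodes an amidotransferase subunit for charging mitochondrial glutamine tRNA. The peak ranked 860 in the optimal list with a signal of 83.36. It ranked 335 in replicate 1 with a signal of 54.9 and a summit 4 bp before the P5cr TSS, but 4047 in replicate 5 with a signal of 28.66 and a summit 63 bp before it, 11 bp from the GatA TSS. This was the optimal peak of the 10 genes with the most unequal ranks, 12.1 times apart, and which of the gene pair the peak belongs to cannot be told.

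AsnS (FBgn0270926, chr3L:21173118-21174973, plus strand) encodes asparagine synthetase. Its optimal peak (chr3L:21171881-21172240) lay between genes 1057 bp before the AsnS TSS, and 131 bp before a TSS of Ac78C, an adenylyl cyclase gene transcribed the other way. The peak ranked 553 with a signal of 100.5, 1550 in replicate 5 with a signal of 43.06 and 382 in replicate 1 with a signal of 51.91. Nearer to AsnS, the summit 507 bp before the gene was found 531 bp before it in replicate 5 (rank 4405) and 546 bp before it in replicate 1 (rank 1731), which places it 242 to 281 bp before the TSS of chb, a gene that overlaps AsnS on the same strand. The peaks within 500 bp of the AsnS TSS were weak, with rank 12573 in the pooled list, 21600 in replicate 5 and 5522 in replicate 1 and signals of 22.43, 11.84 and 15.53. The replicate summits did not match, lying 304 bp before and 82 bp after the TSS.

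**Figure D3:**
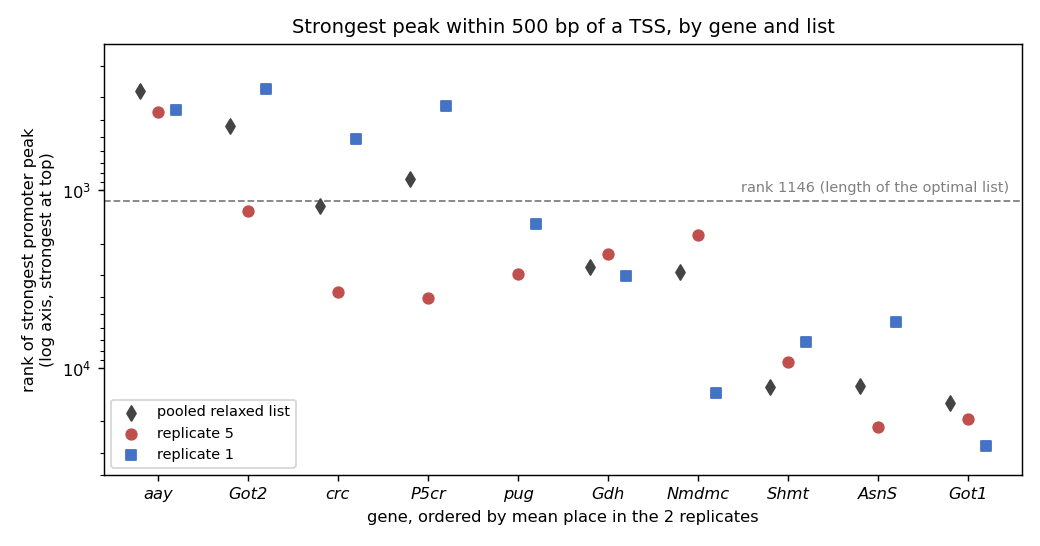
Rank of the strongest peak within 500 bp of a TSS (y axis, log scale, strongest on top) for each gene (x axis, ordered by the mean place in both replicates) in the pooled relaxed list, replicate 5 and replicate 1; the dashed line marks rank 1146, the length of the optimal list. The aay peak lies above the line in all 3 lists, Got2, P5cr and crc lie above it in replicate 1 but not in replicate 5, and pug has no pooled peak.

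The folate enzymes had no optimal peak in reach. Shmt (FBgn0029823, chrX:5913067-5916797, minus strand), serine hydroxymethyltransferase, which passes a carbon unit from serine to tetrahydrofolate, had promoter peaks of rank 12815 in the pooled list, 9235 in replicate 5 and 7119 in replicate 1, with signals of 22.21, 19.31 and 14.2. The summits lay 53 and 35 bp after a TSS in the first 2 lists, but the replicate 1 summit was another one, in an intron 387 bp after a TSS. Just outside its reach, 2115 bp before the gene in an intron of CG3726, lay a far stronger optimal peak. It ranked 89 in the optimal list with a signal of 244.6, 89 in replicate 5 with a signal of 144.9 and 90 in replicate 1 with a signal of 104. The limit of 2 kb thus decides whether Shmt is counted with an optimal peak.

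Nmdmc (FBgn0010222, chr3R:9042508-9050555, minus strand), a mitochondrial methylenetetrahydrofolate dehydrogenase and cyclohydrolase, had a promoter peak of rank 2874 in the pooled list with a signal of 47.58 and of rank 1787 in replicate 5 with a signal of 40.44. In replicate 1 the strongest promoter peak ranked 13863 with a signal of 11.11 and lay at another place, 166 bp before a TSS, while a summit near the pooled one ranked 24109 there. The pooled summit, 61 bp before an internal Nmdmc TSS, also lies 67 bp after the start of Mst85C, in its 5′ UTR on the opposite strand. The Nmdmc promoter thus ranked higher in replicate 5 than in replicate 1, the reverse of the order at P5cr.

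The pug gene (pugilist, FBgn0020385, chr3R:10696534-10703316, plus strand) encodes a C1-tetrahydrofolate synthase of the cytosol. It was the only one of the 10 genes with no promoter peak in the pooled list. Replicate 5 had a peak 32 bp after a TSS with rank 2946 and a signal of 32.89. The strongest promoter peak of replicate 1 was at another site, 29 bp before a TSS, with rank 1541 and a signal of 26.84. In replicate 1 the summit matching that of replicate 5 lay 60 bp after a TSS, with rank 5628 and a signal of 15.41. The pooled list held no summit between chr3R positions 10686049 and 10740169, a stretch with 12 coding genes in which replicate 5 had 3 peaks and replicate 1 had 9. The median distance between neighbouring pooled summits was 1687 bp, and 159 of 27906 such gaps were as wide. Among peaks in the 3000 strongest of both replicates, 12 of 1517 in replicate 5 and 12 of 1485 in replicate 1 (0.791% and 0.808%) had no pooled summit within 500 bp. Why the pooled list leaves out this stretch was not tested. The pug start lies 113 bp before that of CG46459 and CG14683, and the replicate 5 summit lies 32 bp after the nearest TSS of pug and 32 bp after that of CG46459.

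Gdh (FBgn0001098, chr3R:23935958-23943101, minus strand) is glutamate dehydrogenase, the mitochondrial enzyme that converts glutamate and 2-oxoglutarate into each other. Its promoter peak ranked 2697 in the pooled list with a signal of 49.2, 2275 in replicate 5 with a signal of 36.67 and 3046 in replicate 1 with a signal of 19.63. The summits lay 92, 33 and 152 bp before the TSS. Its ranks were close in both replicates, and all were below the 1146 strongest.

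A relaxed promoter peak was present in both replicates for all 10 genes, where 30% of protein-coding genes had one, and in the pooled list for 9, where 47.5% did. The strongest promoter summits of the replicates lay within 100 bp of each other at aay, Got2 and P5cr alone. At crc, AsnS, Shmt, Nmdmc, pug, Got1 and Gdh they lay farther apart, so their ranks are not those of 1 shared site. The genes were chosen with results known, so nothing is read from the comparison with all genes. For single replicates the shares of all genes were 49.8% in replicate 5 and 42.1% in replicate 1. A promoter peak in both replicates without one in the pooled list, as at pug, was found for 1.44% of genes. Among the 1146 strongest peaks of a list, promoter peaks of 1 gene were found in replicate 5 (aay, 6.25% of all genes) and of 4 genes in replicate 1 (crc, aay, Got2 and P5cr, 5.64% of all genes). By the share of genes with a stronger promoter peak, averaged over both replicates, the order was aay (4.28%), Got2 (8.93%), crc (20.4%), P5cr (20.7%), pug (23.4%), Gdh (26.6%), Nmdmc (44%), Shmt (56.5%), AsnS (66.8%) and Got1 (91.7%). Every pair of neighbours in this order had replicate values that overlapped, so these values do not separate neighbours in the order. Spearman's rho between the replicates' ranks over the 10 genes was 0.491, a description over genes that share the control and the libraries.

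CACGTG, the E-box that Mondo is known to bind, was rare at optimal summits in general. Within 50 bp of the optimal summits of these genes, none of the 5 windows held CACGTG or its paired form. The paired form is 2 copies separated by 5 bases with at most 2 mismatches. Of the 1117 nuclear optimal windows of the same length, 1.34% and 0.269% held them, and of the pooled relaxed windows 1.23% and 0.232%. With such shares, nothing is read from the absence in 5 windows. None held TGATGNAA, a sequence of the kind bound by ATF4 dimers, or TATCGATA, found in 1.52% and 2.69% of windows. The looser CANNTG, which occurs in 38.1% of windows, was found, as CATGTG, at Got2 alone. The word GAGAG, present in 14.4% of windows, was found at crc alone, where the sequence printed above holds 5 partly overlapping matches after the summit. The guanine and cytosine content was 45.5% at crc, 34.7% at aay, 36.6% at AsnS, 53.5% at Got2 and 43.6% at P5cr, where optimal windows span 25.7% to 51.5% from the 10th to the 90th percentile, and only Got2 lay outside that range. These matches are descriptions of letters in a window and say nothing of which factor was bound.

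CACGTG did occur elsewhere in several of the genes. Within 500 bp of a TSS it was found at crc (2 copies), AsnS (2), Nmdmc (1) and Gdh (1), where 15.4% of coding genes have it. TGATGNAA was found within 500 bp of a TSS at none of the 10 genes, against 16.5% of coding genes. TATCGATA was found at pug (2 copies), crc (1) and Got1 (1), against 13% of coding genes, and both pug copies lie in the stretch printed above. Some of the CACGTG copies in reach are printed here, with 10 bases on either side on the strand of the gene and the E-box in capitals.
crc intron, chr2L:21311122-21311127: attgttgctgCACGTGtgttggtggc
crc 5′ UTR, chr2L:21311278-21311283: aagtcgcctgCACGTGcgaaaatgag
AsnS upstream, chr3L:21173018-21173023: gaactagttgCACGTGgaaataagct
Nmdmc intron, chr3R:9049276-9049281: aatatacaaaCACGTGcgaggctcat
Gdh intron, chr3R:23941044-23941049: cggctttgttCACGTGatagtcacgt
The crc copies lie 259 and 415 bp after the first TSS, 270 and 114 bp from the pooled summit of rank 1328, and the AsnS copy lies 97 bp before the TSS, 170 bp from the pooled summit of rank 12573. The Nmdmc copy, 32 bp before a TSS, was 16 bp from a pooled summit of rank 7772 with a signal of 28.79, and 136 and 134 bp from the nearest summits of replicates 5 and 1. The printed Gdh copy, 2054 bp after the nearest TSS, was 55 bp from a pooled summit of rank 6153 with a signal of 32.5. The printed copies thus lay 16 to 270 bp from pooled relaxed summits outside the optimal list. Copies that are not printed lay up to 2748 bp from a pooled summit, the farthest at Nmdmc. The Gdh copy within 500 bp of a TSS, 2 bp after it, is among them and lay 1036 bp from a pooled summit. The CACGTG closest to an optimal summit of its gene was in a coding exon of P5cr, 503 bp from it.

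The pathways around these genes were described from 3 lists. Of 24 further enzymes of amino acid and folate metabolism, 2 had an optimal promoter peak and 4 an optimal peak in reach. CG6287 had a peak 453 bp after its TSS with rank 640 and a signal of 94.51, matched in replicate 5 at rank 1331 and by no summit within 100 bp in replicate 1, whose strongest promoter peak of CG6287 lay elsewhere with rank 387 and a signal of 51.85. The proline dehydrogenase gene slgA had one 25 bp before a TSS with rank 877 and a signal of 82.61, and ranked 1317 in replicate 5 and 1242 in replicate 1. The glutamine synthetase gene Gs2 had a peak in an intron 539 bp after its TSS, with rank 446 and a signal of 110, which ranked 1764 in replicate 5 and 215 in replicate 1. The arginase gene arg holds 2 optimal peaks far from its own TSS, the stronger at the start of elav with rank 305. The enzymes with no optimal peak include P5CS, Gs1, Oat, Sam-S and Cbs.

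Of 14 genes of the integrated stress response and of partners of crc, 4 had an optimal promoter peak and 6 one in reach. They hold the strongest peaks of the 3 lists. PPP1R15, which encodes the subunit that directs a phosphatase to eIF2, had a peak of rank 46 and a signal of 399.1 in reach, ranked 42 in replicate 5 and 41 in replicate 1, but 1270 bp before its TSS and at the start of Sox14. Sesn, the sestrin gene, had a promoter peak of rank 73 with a signal of 277, ranked 116 and 48 in replicates 5 and 1 and shared with CG46429. Atf3, a basic leucine zipper factor, had a promoter peak of rank 102 with a signal of 223.7, ranked 144 and 76, 198 bp before its TSS.

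The remaining peaks of these lists were weaker. The trbl gene (tribbles, a pseudokinase) had an intron peak of rank 200 with a signal of 163.8, 1837 bp after its TSS. The bZIP genes Irbp18 and Xrp1, whose proteins pair with each other, had promoter peaks of rank 707 with a signal of 90.55, shared with APP-BP1, and of rank 1056 with a signal of 76. No optimal peak was in reach of Gcn2, PEK, eIF2alpha, Thor, Atf6, Ire1, Xbp1 or REPTOR-BP. Of 10 amino acid transporter genes, 1 had an optimal peak. It was gb (genderblind, a subunit of a glutamate exchanger), with a promoter peak of rank 270 and a signal of 142.4, shared with CG5815 and ranked 183 in replicate 5 and 782 in replicate 1. Over the 3 lists, 7 of 48 genes had an optimal promoter peak and 11 of 48 an optimal peak in reach, beside 6.17% and 9.56% of all protein-coding genes.

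**Figure D4:**
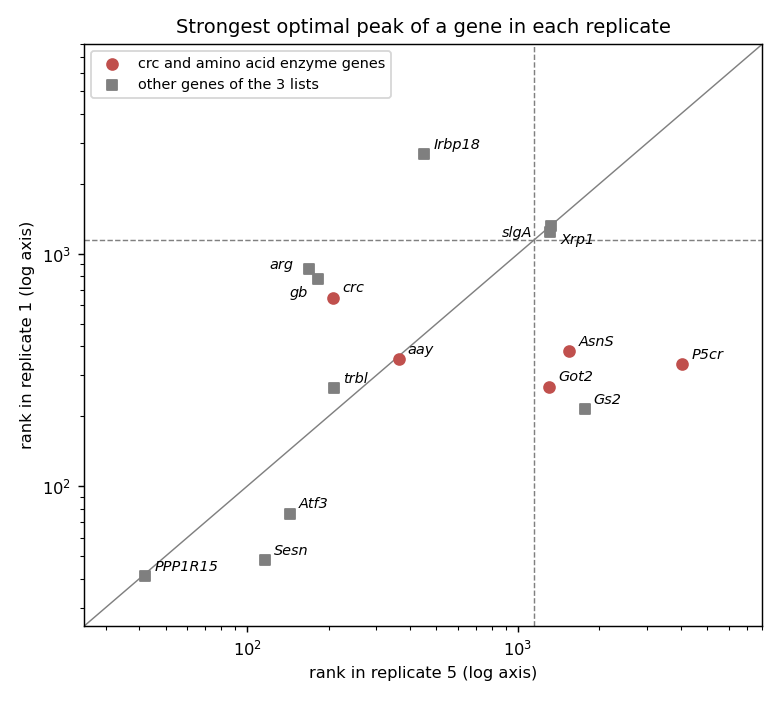
Rank of each gene's strongest optimal peak in replicate 5 (x axis, log scale) and in replicate 1 (y axis, log scale), for the crc and amino acid enzyme genes and for genes of the 3 lists; the diagonal marks equal ranks and dashed lines rank 1146 in each replicate. The crc and aay peaks lie within the strongest 1146 of both replicates, whereas AsnS, Got2 and P5cr do so in replicate 1 alone. Of the list genes, PPP1R15, Sesn, Atf3, trbl, arg and gb do so in both replicates. Gs2 does so in replicate 1 alone and Irbp18 in replicate 5 alone. CG6287, with no match in replicate 1, is not drawn.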

How the data were processed

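The authors called peaks on each replicate's alignments, and on both pooled, against 1 control alignment, and derived the optimal list from these, per text files that the authors deposited beside them. The aligner, peak caller, versions and threshold were not given in the sources used here. Each deposited peak has a signal value, a −log10 q-value and a summit position (an offset from the peak start). Only lists in the dm6 build were used; the dm3 lists were not used here. Summits were placed against the Ensembl release 115 annotation (BDGP 6.54) with Python 3.11.15, pandas 2.3.3 and numpy 2.4.6. Peaks were ranked by signal within a list. Summits within 100 bp were matched between lists. The count of strong replicate peaks without a pooled summit instead matched the replicates within 250 bp. The counting steps were tested on simulated data.

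The genes, lists and settings were chosen with earlier results of these data known, so no test was run on them. All 10 genes were named, together with genes whose TSS lies within 500 bp of an optimal summit in their reach, list genes with an optimal peak, and the 3 genes closest in rank to the strongest promoter, with RpS21, which ties with the last of them. Nothing in the labels gives the depth of a library.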

Additional observations from a re-analysis of the deposited data

How the results depend on the processing

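The count of genes with an optimal promoter peak, 3, ranged from 1 to 4 when the 1146 strongest peaks of 1 replicate stood in for the optimal list, being 1 (aay) for replicate 5 and 4 (crc, aay, Got2 and P5cr) for replicate 1. The count with an optimal peak in reach, 5, ranged from 2 (crc and aay) for replicate 5 to 5 for replicate 1. It was 3 (crc, Got2 and P5cr) when no bases before the gene were counted, 6 with 5 kb, which adds Shmt, and 4 when peaks nearer to a TSS of another gene were left out, an alternative chosen after seeing the data. The single optimal peak in the crc reach became 2 in each replicate alone, but the added peak was at a different site. In replicate 5 it was the summit 533 bp after the first TSS (rank 801), in replicate 1 that 377 bp before the second TSS (rank 513). The count of promoters among the strongest peaks of both replicates, 1, became 2 with a distance of 1000 bp (crc and aay) and 2 with the 2292 strongest peaks (aay and Got2). Of the 9 pooled promoter ranks, that of AsnS went from 12573 to 2536 with a distance of 1000 bp and that of crc from 1233 to 4155 with 200 bp, and the others kept their rank under both distances. Apart from those where the construction changes what is counted, the cause was not tested. No paired analysis was possible because there is 1 group. With 2 replicates and unknown depth, differences in rank between the replicates have no error of their own.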

Other observations

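For the 4 other genes with no optimal peak in reach, the nearest optimal peak lay farther from a TSS of the gene than that of Shmt. It was 5405 bp before Nmdmc in an intron of Kdm2, with rank 653, a signal of 93.8 and ranks of 1684 and 873 in replicates 5 and 1. It was 15325 bp before pug, near Phyhd1, with rank 375 and a signal of 120.9, and ranked 2057 and 176 in replicates 5 and 1. It was 8950 bp before Got1 in an intron of spin, with rank 672 and a signal of 92.45, and ranked 2543 and 326 in the replicates. For Gdh it was past the end of the gene in an intron of CG5854, 4344 bp after the nearest Gdh TSS, with rank 255 and a signal of 147.1, and ranked 352 and 200.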
